A study of Mus musculus with 15 samples.

Results

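The platelet-derived growth factor (PDGF) family was followed through 5 lines of 4T1 cells, a metastatic mammary carcinoma line of the mouse. The 6 genes are those of the ligands, Pdgfa, Pdgfb, Pdgfc and Pdgfd, and of the receptors, Pdgfra and Pdgfrb. They were chosen by symbol from 19937 measured genes, and each was read by a single probe set with no other symbol, so all 6 are accounted for and no filter on low values was applied. Total RNA of 3 samples per line was hybridised to 1 array each. The lines were parental 4T1 cells, the study's control; Tw1KD cells, in which endogenous Twist1 was depleted; and 3 lines made from Tw1KD cells by adding back Twist1 as its wild-type form or with S42A or S42D, called here the wild-type, S42A and S42D lines. In S42A and S42D, serine 42 of Twist1 is replaced by alanine or by aspartate. The genotype field of the last group names both substitutions, so that its identity rests on the sample titles. All lines are described as grown to 70% confluency in medium holding G418 at 800 µg/ml and puromycin at 4 µg/ml. The sources used here do not say whether a line was a clone or a pool, so a construct's effect and a difference between clones cannot be told apart.

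PDGFs are secreted dimers that bind and pair tyrosine kinase receptors on the cell surface. PDGF-A and PDGF-B are released in active form, whereas PDGF-C and PDGF-D carry a CUB domain that proteases such as tissue plasminogen activator (PDGF-C) and urokinase or matriptase (PDGF-D) must remove. PDGF-A and PDGF-C act mainly through receptor alpha, PDGF-D mainly through receptor beta, and PDGF-B through both. The receptors feed the Ras-ERK, PI3K-Akt and phospholipase C gamma pathways. In the mammary gland they are best known from fibroblasts and pericytes, and in carcinoma cells their appearance is a known mark of epithelial-mesenchymal transition, the programme that Twist1 drives.

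Twist1 signal had line means of 9.03 log2 in parental cells, 7.35 in Tw1KD cells and 8.33, 8.70 and 9.00 in the wild-type, S42A and S42D lines. This signal thus differed between the 3 lines given constructs, and the substitution and the Twist1 level cannot be told apart. The position of this probe set relative to the depleted and introduced transcripts is not given, so it may not measure the constructs. None of the 10 mammary carcinoma markers examined (keratins, claudins, Epcam and Cdh1) lay below 5.51 log2, the lower quartile of all gene means, in any line. The list also moved between lines, and on depletion its sum rose where the PDGF genes called fell. Its summed level was 14.31 to 14.37 log2 in parental arrays, 14.74 to 14.80 in Tw1KD arrays and 13.86 to 14.06 in the re-expressing lines. On depletion 5 of the 10 were called at least 1 log2 higher (1.03% of all genes), and with each construct 5 of 10 at least 1 log2 lower (2.22%, 2.39% and 1.59% of all genes with wild-type Twist1, S42A and S42D). Line means of Cdh1 (E-cadherin) were 10.31 in parental cells, 11.46 in Tw1KD cells and 8.52, 6.34 and 7.50 in the wild-type, S42A and S42D lines, and Epcam went from 9.76 in Tw1KD cells to between 5.55 and 5.66, just above the dim limit. The leukocyte genes Ptprc, Adgre1, Itgam and Ncr1, the endothelial genes Tek and Emcn, the fibroblast genes Lum, Fap and Postn and the pericyte gene Rgs5 lay below that limit in every line. They were 4 of 9 leukocyte, 2 of 8 endothelial, 3 of 10 fibroblast and 1 of 10 pericyte and smooth muscle markers. Every other marker of these lists reached the limit in at least 1 line, such as Col1a1 with line means of 7.31 to 7.71. Sums over these lists differed between lines, each beside a large difference in a single gene. The summed level of 10 fibroblast markers was 9.61 to 9.89 log2 in parental and Tw1KD arrays and 10.06 to 10.39 in arrays of the 3 re-expressing lines, where Dpt had line means of 8.17 to 8.80 against 4.67 in Tw1KD cells and 4.76 in parental cells. Against Tw1KD cells, 1 of these 10 markers was called higher and 1 lower with wild-type Twist1 (23.5% and 24.5% of all genes). With S42A 3 were called higher and 0 lower (22.8% and 19.7%), and with S42D 2 higher and 0 lower (21.7% and 21.7%). The sum of 10 pericyte and smooth muscle markers was highest in parental arrays (10.88 to 10.93, against 9.92 to 10.50 elsewhere), as was Mcam (10.08 against 7.98 to 8.81). The summed level of 8 endothelial markers was 9.00 to 9.37 in 4 lines and 11.00 to 11.03 in the S42D line, where Cdh5 reached 10.67. Over 9 leukocyte markers it was 9.80 to 9.85 in parental arrays and 10.62 to 11.11 elsewhere, with Cd68 at 8.50 in parental cells and 9.80 to 10.71 in the other lines. The part of all these markers in the results below was not tested. Array medians ran from 6.57 to 6.72 log2, and over the 10 comparisons the share of genes called different (limma over all arrays, Benjamini-Hochberg adjusted p under 0.05) that were higher ran from 47.2% to 56.1%, or from 30.0% to 71.7% after median centring of the arrays.

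The upstream sequences of Pdgfra and Pdgfc are shown because Twist1 binds E-boxes and because these genes fell together on its depletion. RefSeq windows of the 250 bases before the start site (GRCm38.p6) were found for Pdgfa, Pdgfc, Pdgfd and Pdgfra. None was found for Pdgfb, and Pdgfrb, which also fell on depletion, was not looked up. The E-box CANNTG was searched on both strands, followed by pairs of E-boxes 5 bases apart. Of its forms, CATATG and CATCTG were counted singly, as were CAGGTG and CAGCTG, and all of them overlap the E-box by definition. The TATA motif TATAAA and the CArG box, the binding site of serum response factor, were searched as well. Capitals mark E-boxes and CArG boxes. The Pdgfra window is chr5:75152001-75152250, plus strand, and the Pdgfc window is chr3:81036166-81036415, plus strand.
Pdgfra: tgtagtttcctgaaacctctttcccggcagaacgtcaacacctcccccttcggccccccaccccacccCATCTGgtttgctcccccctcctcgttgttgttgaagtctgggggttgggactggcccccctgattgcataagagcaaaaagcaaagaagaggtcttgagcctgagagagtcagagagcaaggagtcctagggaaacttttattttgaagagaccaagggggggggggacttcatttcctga
Pdgfc: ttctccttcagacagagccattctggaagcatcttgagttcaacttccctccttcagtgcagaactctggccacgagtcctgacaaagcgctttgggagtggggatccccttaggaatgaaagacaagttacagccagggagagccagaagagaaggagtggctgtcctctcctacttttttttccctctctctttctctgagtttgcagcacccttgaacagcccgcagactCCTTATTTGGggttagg
Pdgfra held 1 E-box, CATCTG, starting at base -182 from the start site. E-boxes of any form were present in 66.2% of 32851 windows of this length, and CATCTG in 14.4%. The Pdgfc window held no E-box and 1 CArG box, CCTTATTTGG, starting at base -17, a match found in 1.47% of windows. The windows of Pdgfa and Pdgfd held neither. TATAAA was found in the Pdgfd window alone. A match of letters is not a binding site, and a window without one says nothing of Twist1.

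Pdgfc, whose product is latent until cleaved, had the widest range of the 6 genes, 5.46 log2 between its highest and lowest line means. Its signal (log2 intensity, replicates 1 to 3) was 9.10, 9.01 and 9.05 for parental cells and 6.50, 6.58 and 6.36 after Twist1 depletion. Cells given wild-type Twist1 had 5.55, 5.35 and 5.66, those given S42A had 8.60, 8.67 and 8.61 and those given S42D had 11.04, 10.94 and 10.95. No 2 lines overlapped, and the order was S42D, parental, S42A, Tw1KD and wild-type from high to low. On depletion Pdgfc fell by 2.58 ± 0.073 log2 (difference ± SE, n = 3 arrays per line), a 5.97-fold change (adjusted p = 3.6e-12, limma). The re-expressing lines differed from Tw1KD cells in different directions. With wild-type Twist1 Pdgfc was lower still, by -0.96 ± 0.073 against Tw1KD (adjusted p = 5.6e-08). It was higher by 2.15 ± 0.073 with S42A (adjusted p = 1.1e-11) and by 4.50 ± 0.073 with S42D (adjusted p = 7.8e-15). With S42D it was 43.9-fold above the wild-type line (5.46 ± 0.073) and 5.11-fold above the S42A line (2.35 ± 0.073). It was also 3.80-fold above parental cells (1.92 ± 0.073), and S42A remained slightly under them (-0.43 ± 0.073, adjusted p = 0.00022). The wild-type mean, 5.52 log2, lay at the 5.51 log2 below which genes were counted as dim, where array signals compress, so that folds against this line can be understated. The Tw1KD mean, 6.48 log2, lay above this limit but under every array median, and compression there was not tested.

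**Figure D1:**
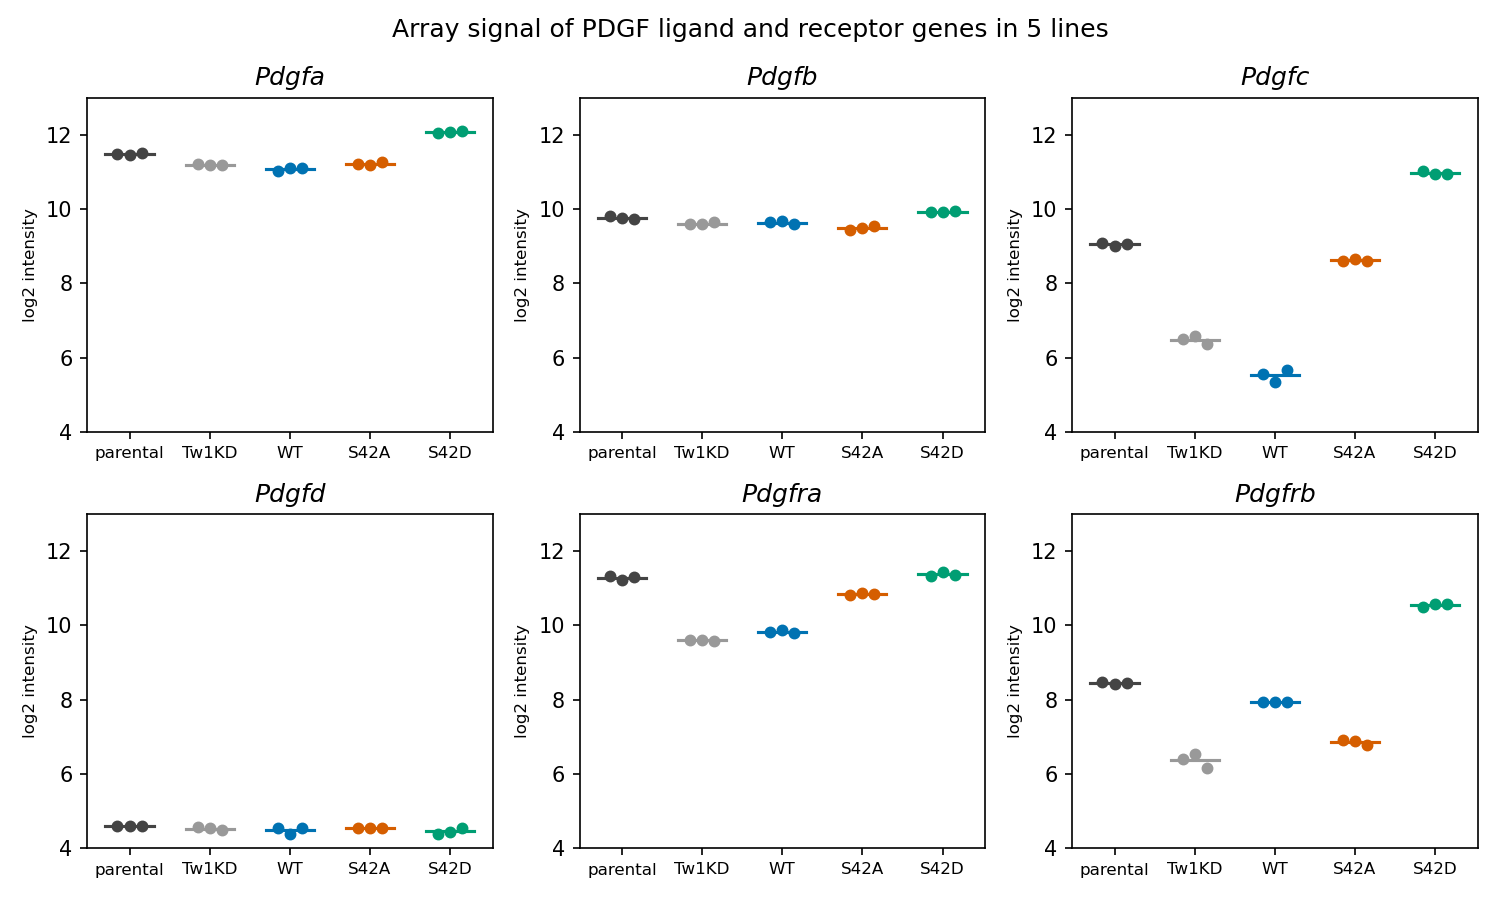
Log2 intensity of the 6 PDGF genes (1 panel per gene) in parental, Tw1KD, wild-type (WT), S42A and S42D lines; each point is 1 array and each bar the mean of 3. Pdgfc ranged from 5.35 to 11.04 and Pdgfrb from 6.15 to 10.59, while Pdgfd stayed between 4.37 and 4.59.

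Pdgfra encodes receptor alpha, the receptor of PDGF-A and PDGF-C. Parental arrays read 11.34, 11.23 and 11.30 log2 and Tw1KD arrays 9.61, 9.60 and 9.58. After return of Twist1 the arrays read 9.83, 9.88 and 9.78 (wild-type), 10.82, 10.88 and 10.84 (S42A) and 11.33, 11.43 and 11.37 (S42D). Arrays of the S42D line overlapped with those of parental cells, and no other pair of lines overlapped. Pdgfra fell by 1.69 ± 0.043 log2 on depletion, 3.22-fold (adjusted p = 1.3e-12). Against Tw1KD cells it was higher by 0.24 ± 0.043 in the wild-type line (adjusted p = 0.00031), 1.25 ± 0.043 in the S42A line (adjusted p = 1.2e-11) and 1.78 ± 0.043 in the S42D line (adjusted p = 2.9e-13). Expressed on the log2 scale as a share of the fall, the wild-type line regained 14.0% (12.5% to 15.5% when single arrays were left out), the S42A line 74.0% (72.8% to 75.1%) and the S42D line 105.4% (103.7% to 107.0%). The difference between the S42D line and parental cells was 0.092, with a 95% confidence interval from -0.0005 to 0.18 (adjusted p = 0.11). S42A exceeded wild-type by 1.01 ± 0.043 and S42D exceeded S42A by 0.53 ± 0.043 (adjusted p = 2.2e-10 and 1.8e-07).

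Pdgfrb encodes receptor beta, the main receptor of PDGF-B and PDGF-D. Parental arrays gave 8.48, 8.41 and 8.46 log2, and depleted cells gave 6.39, 6.55 and 6.15. The wild-type line gave 7.95, 7.93 and 7.93, the S42A line 6.90, 6.89 and 6.79 and the S42D line 10.49, 10.58 and 10.59. No 2 lines overlapped, and the order was S42D, parental, wild-type, S42A and Tw1KD. Like Pdgfra it fell on depletion, by 2.09 ± 0.076 log2 or 4.25-fold (adjusted p = 4.5e-11). The re-expressing lines then took another order than for Pdgfra. Pdgfrb was higher than in Tw1KD cells by 1.57 ± 0.076 in the wild-type line (adjusted p = 4.5e-10) and 0.50 ± 0.076 in the S42A line (adjusted p = 6.7e-05). In the S42D line it was higher by 4.19 ± 0.076, 18.3-fold (adjusted p = 1.9e-14). The S42A line lay under the wild-type line by -1.08 ± 0.076 (adjusted p = 4.0e-08), where Pdgfra was higher in S42A. Of the fall, 75.4% was regained with wild-type Twist1 (74.1% to 76.5% without single arrays), 23.9% with S42A (19.8% to 27.1%) and 200.9% with S42D (196.5% to 206.3%). The S42D line stood 4.30-fold above parental cells (2.11 ± 0.076, adjusted p = 4.7e-11). The Tw1KD mean of Pdgfrb, 6.36 log2, lay under every array median, and the S42A mean, 6.86, just above them. Whether a floor of the signal limits the fall, the shares regained or folds against these lines was not tested.

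**Figure D2:**
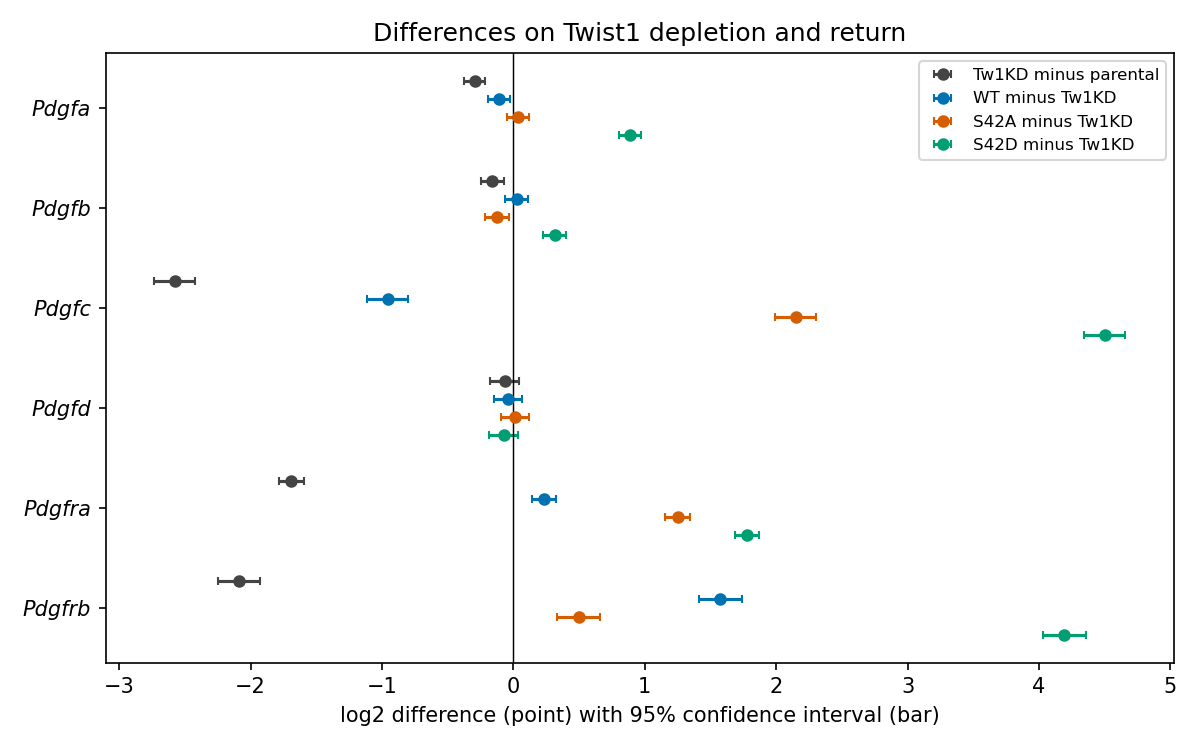
Log2 difference of each PDGF gene between Tw1KD and parental cells and between each re-expressing line (WT, S42A, S42D) and Tw1KD cells; points are differences from the fit over 15 arrays and bars their 95% confidence intervals. The 3 returns of Pdgfc lie at -0.96, 2.15 and 4.50, and those of Pdgfrb at 1.57, 0.50 and 4.19.

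The receptor genes were therefore compared with each other within arrays, as Pdgfra minus Pdgfrb signal. Signals of different probe sets are not on a common scale, so only changes of this difference between lines are read. It was 2.84 ± 0.020 log2 (SD, n = 3) in parental cells, 3.24 ± 0.19 in Tw1KD cells, then 1.90 ± 0.053 after return of wild-type Twist1, 3.99 ± 0.064 for S42A and 0.82 ± 0.038 for S42D. The arrays of no pair of lines overlapped. Between the S42A and wild-type lines it changed by 2.09 (4.26-fold towards Pdgfra in S42A), and between the S42D and S42A lines by -3.17 (8.97-fold towards Pdgfrb in S42D). Against Tw1KD cells it changed by -1.34 with wild-type Twist1, 0.75 with S42A and -2.41 with S42D. Depletion itself moved it by 0.40, of which 0.30 remained without Tw1KD replicate 3. Pdgfrb signal was low in the Tw1KD and S42A lines, and the part of a signal floor in this difference was not tested. In each of the 7 comparisons the exact permutation test (2-sided) gave p = 0.1 and a Benjamini-Hochberg value of 0.1, the smallest that 3 against 3 arrays allow, so none of them could pass the threshold.

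**Figure D3:**
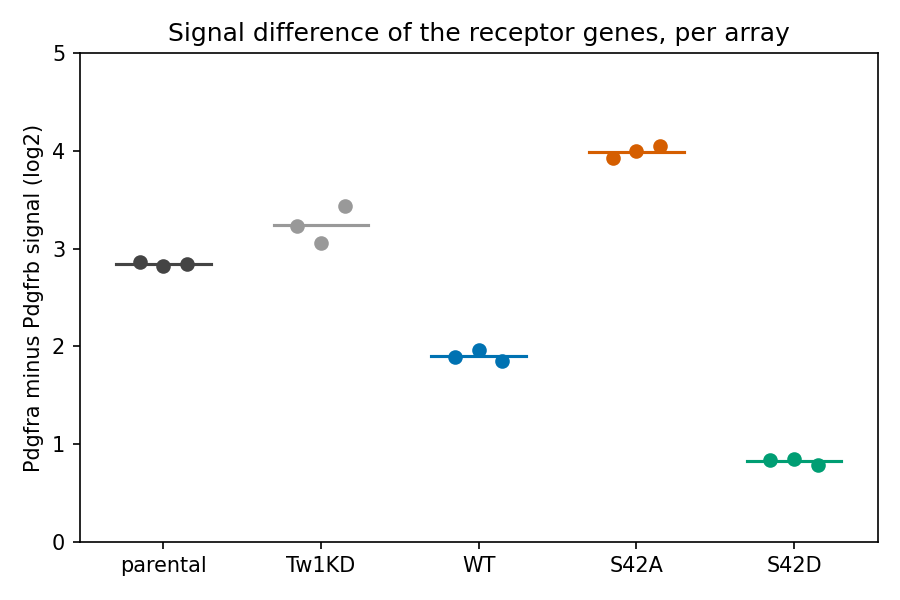
Pdgfra minus Pdgfrb log2 signal on each of 15 arrays (points; bars are means of 3) in the 5 lines. The S42A arrays lie highest, at 3.92 to 4.05, and the S42D arrays lowest, at 0.78 to 0.85.

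The other ligand genes varied much less. Pdgfa, which encodes the chain that binds receptor alpha alone, read 11.48, 11.46 and 11.53 log2 on parental arrays, 11.21, 11.19 and 11.19 on Tw1KD arrays and 11.03, 11.12 and 11.11 with wild-type Twist1. With S42A it read 11.22, 11.20 and 11.27 and with S42D 12.06, 12.09 and 12.10, the latter above all other arrays. It fell on depletion by 0.29 ± 0.038 log2 (adjusted p = 2.0e-05) and rose with S42D by 0.89 ± 0.038 over Tw1KD (adjusted p = 1.3e-10), to 1.51-fold over parental cells. With S42A it differed from Tw1KD by 0.037 (95% confidence interval -0.045 to 0.12, adjusted p = 0.51). With wild-type Twist1 it fell by 0.11 ± 0.038 (adjusted p = 0.028), a call lost without replicate 1 of either line (-0.099 without that of Tw1KD and -0.081 without that of the wild-type line), with median centring (-0.059) and with only these lines fitted.

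Pdgfb, the gene of the chain that binds both receptors, stayed within 0.44 log2 between line means. It read 9.83, 9.77 and 9.73 log2 on parental arrays, 9.59, 9.59 and 9.66 on Tw1KD arrays and 9.65, 9.67 and 9.60 with wild-type Twist1. With S42A the arrays read 9.45, 9.48 and 9.54, the lowest group, and with S42D 9.92, 9.92 and 9.95, the highest. In the S42D line it was 0.32 ± 0.041 above Tw1KD (adjusted p = 1.5e-05) and 0.44 ± 0.041 above S42A (adjusted p = 8.3e-07). The fall on depletion, -0.16 ± 0.041 (adjusted p = 0.0062), was not called with median centring (-0.11) or with only these lines fitted. That with S42A against Tw1KD, -0.12 ± 0.041 (adjusted p = 0.025), was not called without Tw1KD replicate 3 (-0.10), without S42A replicate 1 (-0.10) or 2 (-0.12), with median centring (-0.091) or with only these lines fitted. Wild-type Twist1 differed from Tw1KD by 0.027 (95% confidence interval -0.062 to 0.12).

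Pdgfd encodes the other latent ligand. Its arrays lay between 4.37 and 4.59 log2 in all 5 lines, below the 5.51 log2 that marks dim genes, where a change could not be detected with confidence. The largest difference, S42D against parental cells, was -0.14 ± 0.050 (adjusted p = 0.040) and was not called without any single parental array (-0.14 in each case) without S42A replicate 2 (-0.14) or without S42D replicate 1 (-0.11) or 2 (-0.14). It was also lost with quantile normalization (-0.065, adjusted p = 0.35), trend and robust eBayes (adjusted p = 0.11), only these lines fitted (adjusted p = 0.064), the replicate number as a block (adjusted p = 0.056) and median centring (-0.14, adjusted p = 0.055). S42D against parental cells was the only one of the 10 comparisons in which Pdgfd was called.

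Read as a family, 5 of 6 genes were called on depletion, all of them lower, where 36.3% of all genes were called and 16.4% called lower. Of these, 3 fell by at least 1 log2 (Pdgfc, Pdgfra and Pdgfrb), against 1.62% of all genes. With wild-type Twist1, 4 of 6 were called against Tw1KD (2 higher and 2 lower) beside 48.0% of all genes (23.5% higher and 24.5% lower), and 1 (Pdgfrb) rose by at least 1 log2, beside 2.62%. With S42A, 4 of 6 were called (3 higher and 1 lower) beside 42.5% (22.8% higher and 19.7% lower), and 2 (Pdgfc and Pdgfra) rose by at least 1 log2, beside 2.45%. With S42D, 5 of 6 were called, all higher, where 43.4% of all genes were called and 21.7% called higher, and 3 rose by at least 1 log2, beside 2.96%. These comparisons share the Tw1KD arrays. The median over the 4 ligand genes was -0.23 log2 on depletion and -0.075, 0.025 and 0.60 with wild-type Twist1, S42A and S42D, and that over the 2 receptor genes -1.89, 0.91, 0.87 and 2.99, where the medians of all genes were 0.0051, -0.061, -0.012 and -0.045.

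The S42D line exceeded the wild-type line for the same 5 genes, beside 43.3% of all genes called and 20.7% called higher, 3 of them by at least 1 log2 (3.21%). It exceeded the S42A line for all 5, beside 36.1% called and 17.1% called higher, Pdgfc and Pdgfrb by at least 1 log2 (2.23%). Between S42A and wild-type, 5 of 6 were called, beside 40.0% of all genes. There Pdgfc, Pdgfra and Pdgfa (0.15 ± 0.038) were higher in S42A, beside 20.0% called higher, and Pdgfrb and Pdgfb (-0.15 ± 0.041) lower, beside 20.0% called lower. Pdgfc and Pdgfra were at least 1 log2 higher there (1.47% of all genes) and Pdgfrb at least 1 log2 lower (1.69%). Against parental cells, 5 were lower in the wild-type line (49.0% of all genes called, 24.0% called lower) and the same 5 in the S42A line (40.3% and 17.7%). The Pdgfb call in the wild-type line (-0.13 ± 0.041) was lost without parental replicate 1 or wild-type replicate 3 (-0.11 in each case) and with median centring (-0.033). With S42D, 4 were higher than in parental cells and Pdgfd lower, a call that 11 alternatives lost (37.0% of all genes called, 19.8% higher and 17.2% lower), while Pdgfra was not called. The Pdgfb call there (0.16 ± 0.041) was lost with quantile normalization (0.071). In the wild-type line Pdgfc thus stood -3.53 ± 0.073 and Pdgfra -1.45 ± 0.043 log2 from their parental levels, where 2.17% of all genes were called at least 1 log2 lower. In the S42A line Pdgfrb stood -1.59 ± 0.076 from its own (1.9%). With S42D, Pdgfc and Pdgfrb passed their parental levels by at least 1 log2 (1.79% of all genes). Line-mean ranges of at least 4 log2, as for Pdgfc and Pdgfrb, were found in 0.386% of all genes.

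Genes that process or bind PDGFs (10 measured) were called higher for 4 and lower for 3 on depletion (median 0.090 log2, against 0.0051 for all genes), where 19.9% of all genes were called higher and 16.4% lower. Plat, the gene of tissue plasminogen activator, which cleaves PDGF-C, fell by 2.41 ± 0.091 log2 (adjusted p = 7.0e-11). It rose again with wild-type Twist1 (2.21 ± 0.091), with S42A (1.13 ± 0.091) and with S42D (3.37 ± 0.091), the order that Pdgfrb also took. Nrp1, a co-receptor that binds PDGFs and other growth factors, fell by 2.21 ± 0.051 and rose with wild-type Twist1 (1.40 ± 0.051), S42A (3.19 ± 0.051) and S42D (3.27 ± 0.051). St14, the gene of matriptase, rose on depletion (1.46 ± 0.060) and fell with each construct (-4.04, -4.41 and -4.78, each ± 0.060). Plau, the gene of urokinase, was 1.78 ± 0.050 higher with S42D than with S42A. Its line means were 10.91 log2 in parental cells, 11.46 in Tw1KD cells and 10.62, 9.85 and 11.63 in the wild-type, S42A and S42D lines. Furin, the proprotein convertase that cleaves the PDGF-A and PDGF-B precursors, had line means from 10.70 (wild-type) to 11.28 log2 (Tw1KD). It was 0.55 ± 0.038 higher with S42A than with wild-type Twist1. In all, 4 of the 10 genes rose and 4 fell with wild-type Twist1, 4 rose and 3 fell with S42A, and 4 rose and 2 fell with S42D (medians -0.18, -0.024 and 0.11, against -0.061, -0.012 and -0.045 for all genes). Of all genes, 23.5% rose and 24.5% fell with wild-type Twist1, 22.8% and 19.7% with S42A, and 21.7% and 21.7% with S42D.

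**Figure D4:**
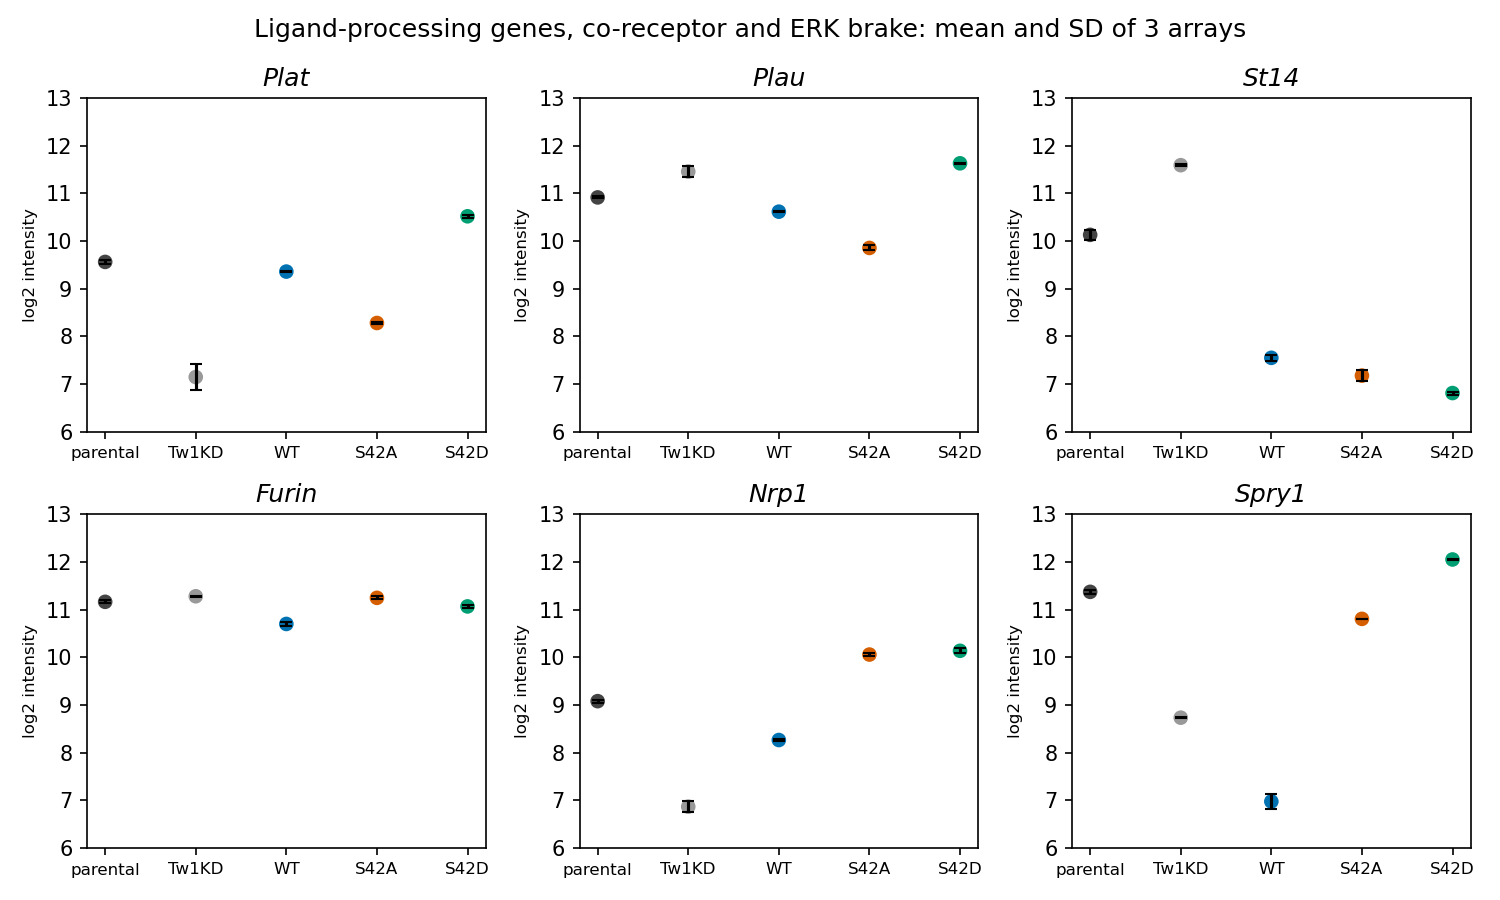
Log2 intensity (mean of 3 arrays, bars SD) of the PDGF-processing genes Plat, Plau, St14 and Furin, the co-receptor gene Nrp1 and the signalling brake Spry1 in parental, Tw1KD, wild-type (WT), S42A and S42D lines. Plat is lowest in Tw1KD cells (7.15) and highest in the S42D line (10.52), and Spry1 lowest in the wild-type line (6.97) and highest in the S42D line (12.05).

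Among 27 measured genes of receptor-proximal signalling, 10 rose and 11 fell on depletion (median 0.0044 log2, against 0.0051 for all genes, of which 36.3% were called). The returns gave 10 higher and 9 lower with wild-type Twist1, 13 and 8 with S42A, and 12 and 8 with S42D (medians 0.015, 0.033 and 0.053, against -0.061, -0.012 and -0.045 for all genes, of which 48.0%, 42.5% and 43.4% were called). Gab1, a docking protein for activated receptors, rose by 1.36 ± 0.11 on depletion and fell with wild-type Twist1 (-1.44 ± 0.11), S42A (-3.05 ± 0.11) and S42D (-3.16 ± 0.11). Fyn, a Src-family kinase that binds PDGF receptors, fell by 0.96 ± 0.10 and rose with all 3 constructs (1.19, 1.03 and 1.79, each ± 0.10). Pik3r1, the p85 regulatory subunit of PI3K, moved the same way, -0.80 ± 0.055 on depletion and 0.48, 0.72 and 1.19 (each ± 0.055) on return.

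Of 15 measured brakes on receptor signalling, 5 rose and 6 fell on depletion (median -0.099 log2), 9 rose and 4 fell with wild-type Twist1, 9 rose and 2 fell with S42A, and 10 rose and 1 fell with S42D (medians 0.19, 0.24 and 0.62). Of all genes, 19.9% rose and 16.4% fell on depletion, 23.5% and 24.5% with wild-type Twist1, 22.8% and 19.7% with S42A, and 21.7% and 21.7% with S42D, around medians of 0.0051, -0.061, -0.012 and -0.045. Spry1, an inhibitor of receptor-driven ERK signalling, fell by 2.64 ± 0.057 on depletion and by 1.76 ± 0.057 more with wild-type Twist1, and rose with S42A (2.07 ± 0.057) and S42D (3.32 ± 0.057). Dusp1, a phosphatase of MAP kinases, rose with wild-type Twist1 (0.98 ± 0.043), S42A (0.86 ± 0.043) and S42D (1.11 ± 0.043). The growth factor early response list (21 measured) had 7 higher and 9 lower on depletion (median -0.057), 11 higher and 10 lower with wild-type Twist1 (0.17), 6 higher and 12 lower with S42A (-0.19), and 10 higher and 6 lower with S42D (0.081), where 36.3%, 48.0%, 42.5% and 43.4% of all genes were called in the same order. Ccl2, a chemokine gene first isolated as induced by PDGF, rose with wild-type Twist1 (4.02 ± 0.16), S42A (2.28 ± 0.16) and S42D (2.32 ± 0.16). Egr1, an early response transcription factor, was 1.69 ± 0.049 higher with S42D than with S42A and -1.36 ± 0.049 lower with S42A than with wild-type Twist1.

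The genes most like each wide-ranging member were named by the root mean square difference of their 5 line means, each centred on its own mean over the lines. This is a description over 5 points that share their arrays. Nearest to Pdgfc was Spry1 (0.50 log2), followed by the complement protease gene C1s1 (0.64), the cathepsin gene Ctso (0.65), the cytokine gene Il33 (0.79) and Stxbp6 (0.84). Spry1 had the same order of lines as Pdgfc. Its line means were 11.37 in parental cells, 8.73 in Tw1KD cells, 6.97 after return of wild-type Twist1, 10.81 for S42A and 12.05 for S42D. Ranks among the members differed with the gene they were taken from, since the measure also depends on how far a gene ranges. By likeness to Pdgfc, Pdgfra stood at rank 67 (1.28) and Pdgfrb at rank 108 (1.38). By likeness to Pdgfra, Pdgfrb stood at rank 19382 (1.10) and Pdgfc at rank 19688, and by likeness to Pdgfrb, Pdgfra stood at rank 230 and Pdgfc at rank 2133.

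Pdgfra was matched more closely, by the adhesion gene Flrt3 (0.099), the protocadherin gene Pcdhb18 (0.16), C1s2 (0.16), the RNA-binding protein gene Celf2 (0.17) and Vwa5a (0.17), all of which have a range close to its own. Pcdhb18 and C1s2 have near-identical relatives, as does C1s1, named above for Pdgfc, so the member read is uncertain. For Pdgfrb the nearest were the semaphorin receptor gene Plxna4 (0.39), the PDGF receptor-like gene Pdgfrl (0.43), the proteoglycan gene Bgn (0.47), the sialyltransferase gene St3gal6 (0.51) and Plat (0.54). Pdgfrl had line means of 8.54, 6.11, 6.72, 6.40 and 9.94 log2 in parental, Tw1KD, wild-type, S42A and S42D cells, the order of Pdgfrb.

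**Figure D5:**
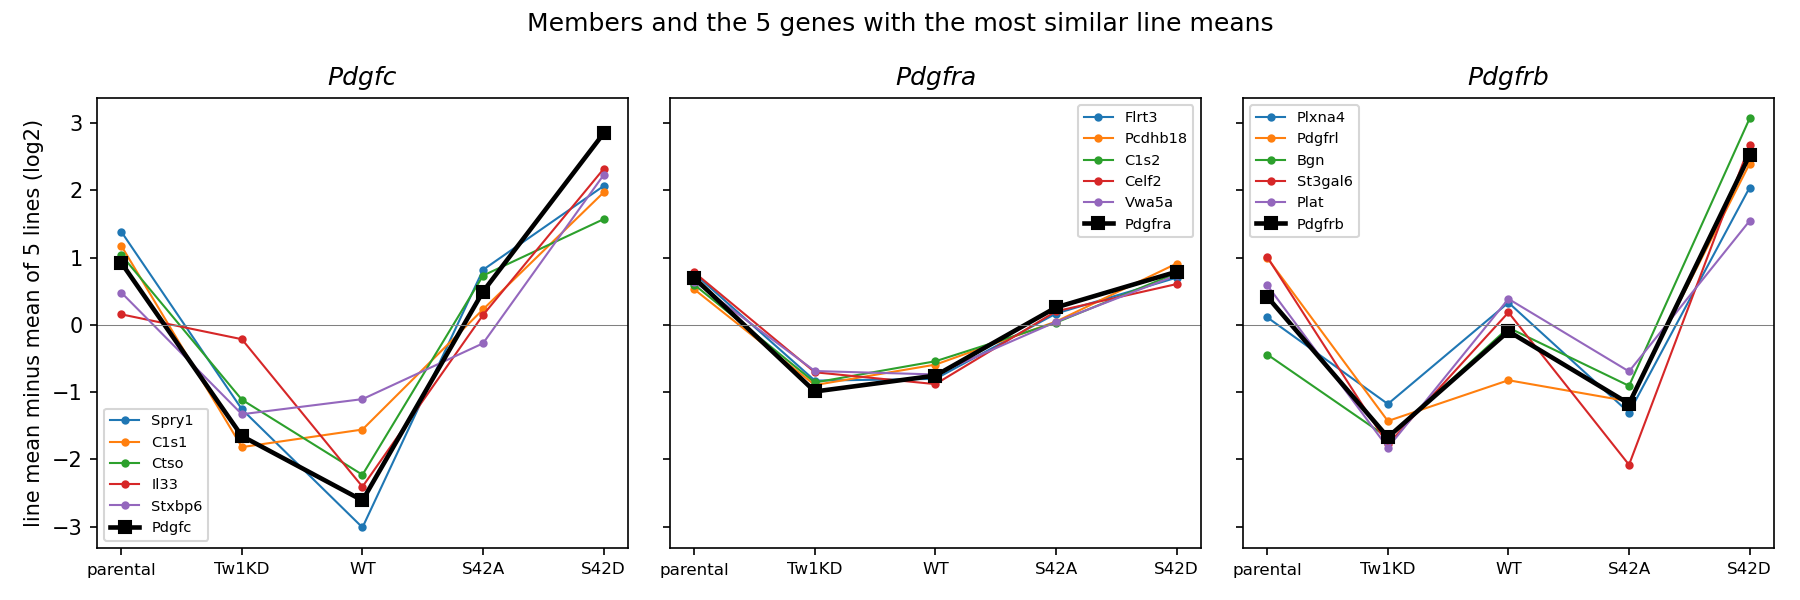
Line means minus the mean of the 5 lines (log2) for Pdgfc, Pdgfra and Pdgfrb (black squares) and the 5 genes with the most similar line means (coloured circles), across parental, Tw1KD, wild-type (WT), S42A and S42D lines. The nearest genes differ from their member by a root mean square of 0.50 to 0.84 for Pdgfc, 0.099 to 0.17 for Pdgfra and 0.39 to 0.54 for Pdgfrb.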

How the data were processed

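RNA of 15 samples (100 ng each, carried through the Ambion WT Expression kit with a biotin label, per the labels) was read on arrays of 34760 probe sets. The authors deposited 1 log2 intensity per probe set. R 2.10.0 and affy are named, without their roles, per the submitters' processing notes. Background correction, normalization and probe summary are not given in the sources used here. Symbols came from the platform annotation, updated by gene number against GRCm38.p6, and 19937 genes were each represented by the brightest probe set with 1 symbol.

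All arrays were fitted in 1 limma 3.58.1 model (R 4.3.3) with a mean per line, tested on simulated data first. Genes with a 2-sided adjusted p under 0.05 (Benjamini-Hochberg over all genes) were called, in 7 main comparisons and 3 against parental cells. Nothing in the labels states that the 3 samples of a line came from separate cultures. The p-values therefore measure only the spread between these samples, which may be technical, and the number of arrays limits the precision. Median SD within a line was 0.066 log2.

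The members and gene lists were chosen with earlier results of these data known. From each list up to 2 called, non-overlapping genes per direction and comparison could be named, beside the 5 genes most like a member whose line means span at least 1 log2. Alternatives covered scaling, dim genes, lines fitted, the replicate block, variance model, probe set choice, array weights and single arrays left out. No alternative background correction was run on the summarised values.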

Additional observations from a re-analysis of the deposited data

Results flagged for a closer look

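For 3 genes the signal differed between re-expressing lines by at least 1 log2, with the difference called in the fit. For Pdgfc it was 3.11 log2 higher with S42A than with wild-type Twist1, 5.46 higher with S42D than with wild-type and 2.35 higher with S42D than with S42A. For Pdgfra it was 1.01 higher with S42A and 1.54 higher with S42D than with wild-type Twist1. For Pdgfrb the S42A line differed from the wild-type line by -1.08, and the S42D line was 2.62 above wild-type and 3.70 above S42A. Construct, Twist1 level and differences between clones cannot be told apart here. Groups of 3 arrays were too small to test for single outlying arrays.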

How the results depend on the processing

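Pdgfc, Pdgfra and Pdgfrb kept their side of the threshold in all 10 comparisons under each of 24 alternatives (240 values per gene). Their called differences also kept their direction. Many alternatives could not move a member's difference, only its standard error or adjusted p. These were the dim gene filter, lines fitted, replicate block, variance model and, with a single probe set per member, probe set choice. Leaving out an array of a line outside the comparison could not move it either. For Pdgfa 4 of 240 values lost the call, for Pdgfb 11 of 240, and for Pdgfd 11 of 230 lost and 1 gained it; Pdgfd has no value without the dimmest genes. No value of these 6 genes that was called changed its sign. In S42D against parental cells 5 members were called, and 3 with quantile normalization. The difference Pdgfra minus Pdgfrb, with single arrays left out, ran from 0.30 to 0.49 for Tw1KD against parental cells, and against Tw1KD from -1.43 to -1.24 for wild-type Twist1, 0.66 to 0.85 for S42A and -2.51 to -2.32 for S42D, the value farthest from that with all arrays always being without Tw1KD replicate 3. Same-numbered arrays did not deviate together throughout (7 of 30 correlations over 0.1, from -0.39 to 0.42). The highest were between parental and Tw1KD cells, 0.42 for replicate 3 and 0.39 for replicate 2, beside 0.015 for replicate 1. Of 15 samples, 6 correlated best with their own number. With the replicate number as a block, members called stayed equal in 9 comparisons and went from 5 to 4 in S42D against parental cells, and all genes called on depletion went from 7242 to 7046. Signal near background limits Pdgfd in every line and Pdgfc in the wild-type line, judged by the 5.51 log2 limit. Above that limit, the Tw1KD means of Pdgfrb (6.36) and Pdgfc (6.48) still lay under every array median (6.57 to 6.72). The S42A mean of Pdgfrb (6.86) lay just above them. Whether a floor of the signal limits differences against these lines was not tested.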

Other observations

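Receptors and ligands related to PDGF (14 measured, including the Kit, Csf1 and VEGF systems) had 2 genes higher and 5 lower on depletion (median 0.015 log2), 6 higher and 4 lower with wild-type Twist1 (0.024), 6 higher and 1 lower with S42A (0.048), and 6 higher and 1 lower with S42D (0.091). Of all genes, 36.3%, 48.0%, 42.5% and 43.4% were called in these comparisons, around medians of 0.0051, -0.061, -0.012 and -0.045. Flt1, a VEGF receptor, fell by 2.33 ± 0.081 log2 on depletion and rose with wild-type Twist1 (2.12 ± 0.081) and S42A (1.75 ± 0.081). It also rose with S42D (1.41 ± 0.081 over Tw1KD, limma adjusted p = 3.2e-09, a comparison named after its values were seen), to -0.72 ± 0.081 from the wild-type line. Vegfc, a ligand of lymphatic VEGF receptors, fell by 0.97 ± 0.086 and rose with wild-type Twist1 (2.43 ± 0.086), S42A (2.54 ± 0.086) and S42D (1.78 ± 0.086). Kitl, the ligand of Kit, was -1.01 ± 0.051 lower with S42D than with S42A.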
